A study of Drosophila melanogaster with 12 samples.

Results

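The starvation response of *dSTINGΔ* males was taken from 3 arrays of starved *dSTINGΔ* mutants set against 3 arrays of fed *dSTINGΔ* mutants, which are 6 of the 12 arrays of the series, and all 13554 genes of the deposited table were tested. The arrays were chosen by genotype and feeding state alone, so no measured value entered the choice of arrays. *dSTINGΔ* (written dSTINGknock in the labels) is a deletion in *dSTING*, the fly gene for Stimulator of interferon genes, made by imprecise excision of a P-element. The translation start of the gene is among the deleted bases. All flies were males aged 5 days that had been kept on food for 4 days. Starved flies then spent 24 hr on moist filter paper, and fed flies stayed on food. The remaining 6 arrays hold w1118 control males, 3 starved and 3 fed, treated in the same way. Each array carried total RNA from 10 pooled whole bodies. Only 1 mutant stock and 1 control stock were used, so an effect of the allele and other differences between the stocks cannot be told apart. In whole-body RNA, fewer cells of a type and less RNA per cell cannot be told apart either, and since nothing states that the samples of a group came from separate cultures, p-values measure the spread between these samples, which may be technical.

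A fasting fly lives on stored fat and glycogen. The fat body, which joins the roles of liver and adipose tissue, breaks down triglyceride from lipid droplets. Low insulin signaling lets the transcription factor FOXO turn on genes such as *InR* and *Thor*, adipokinetic hormone (AKH) acts like glucagon, and autophagy recycles cell contents. STING is a membrane protein of the endoplasmic reticulum (ER) that acts in innate immunity, where in flies it lies upstream of the NF-κB factor Relish.

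The log2 signal of *dSTING* (*CG1667*) was 2.54, 2.57 and 2.36 in the starved mutant arrays, against 2.38, 1.98 and 2.38 in the fed mutant arrays, and the 6 control arrays lay between 5.24 and 6.28. Every mutant array therefore lay below every control array, and within the mutants starvation made no difference past the threshold (log2 fold change 0.25, standard error 0.18, adjusted p = 0.4). Where in the gene the probes lie is not given in the sources used here. Values here are log2 signals after the authors' normalization, a log2 fold change is mean log2 signal in starved minus that in fed flies, and a gene was called at a limma adjusted p under 0.05 over all genes. Array medians were 5.82 to 5.84 in starved and 5.86 to 5.88 in fed mutants, arrays of a group correlated at r of 0.983 to 0.996 across genes, and no 2 arrays were identical.

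Starved mutant array 11 stood apart from its group in 1 set of genes. In it 10 genes lay over 2 log2 units above both other starved mutant arrays, 9 of them antimicrobial peptide genes (*AttA*, *AttB*, *AttC*, *CecC*, *Dpt*, *DptB*, *Dro*, *Drs* and *Mtk*) and the other the peptidoglycan recognition protein gene *PGRP-SB1*. Starved mutant arrays 10 and 12 had 0 such genes. *Dpt*, for the peptide diptericin, had 4.89, 9.41 and 4.92 in starved mutant arrays 10, 11 and 12, against 4.58, 4.82 and 4.85 in fed mutants. List counts of 5 or more genes that moved by over 1.5 times without 1 array, and calls of named genes in starved against fed mutants lost without array 11, are given beside the results they touch. Smaller counts often moved by a gene or more when an array was left out.

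Starvation changed 2280 of 13554 genes in *dSTINGΔ* mutants, 16.8% of those tested. Of these, 990 were higher (7.3% of all genes) and 1290 lower (9.52%) in starved than in fed mutants. Falls were the larger changes, with 318 genes lower by more than 2 fold (2.35% of all genes) and 114 higher by more than 2 fold (0.841%). The starved and fed mutant arrays did not overlap in 5258 genes (38.8%). When every array was centred on its own median signal, the split turned over, to 1312 higher and 1128 lower, or 53.8% higher against 43.4% before centring, so the balance of rises and falls over all genes depends on the scaling. Without array 11 the rises numbered 598 and the falls 985, and without array 10 the rises numbered 646.

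The genes that rose most were led by *CG12826*, to which no role is given here, and by enzymes that make purines and carry folate-bound carbon. *CG12826* had 6.41, 7.78 and 6.52 in starved mutants, against 3.03, 2.78 and 3.33 in fed mutants (log2 fold change 3.85, standard error 0.42, adjusted p = 4.3e-05). All 3 starved arrays lay well above all 3 fed arrays, the highest being array 11, and without that array the change was 3.42. *Nmdmc*, a mitochondrial enzyme of the folate cycle, had 10.25, 10.18 and 9.82 in starved mutants, against 7.25, 6.33 and 6.77 in fed mutants (3.3, standard error 0.3, adjusted p = 1.5e-05). *CG5966*, a lipase of the pancreatic type, had 8.99, 9.0 and 8.87 in starved mutants, against 6.28, 5.95 and 6.77 in fed mutants (2.62, standard error 0.17, adjusted p = 1.4e-06). The 15 largest rises and the 15 largest falls were taken only from called genes whose starved and fed values did not overlap. Lack of overlap is therefore no further result for these genes. Also among the 15 largest rises were the purine enzymes *ade2* (2.99) and *ade3* (2.93), the leucine-rich repeat protein gene *atk* (2.61), the secreted phospholipase *GIIIspla2* (2.56), the threonine dehydrogenase *CG5955* (2.36), the serpin *Spn88Eb* (2.32) and the small nucleolar RNA *snoRNA:Me28S-C1237* (2.77), with *CG10383* (2.77), *CG8679* (2.53), *CG42751* (2.53) and *CG5953* (2.37). The last of the 15, *Fst* (Frost, a gene known to rise on recovery from cold), had 7.77, 8.68 and 7.35 in starved mutants, against 5.76, 5.53 and 5.42 in fed mutants (2.37, adjusted p = 0.021). Its call was lost without starved array 11 (adjusted p = 0.091), without any 1 of the fed arrays (adjusted p = 0.0509 without array 4, 0.0534 without array 5 and 0.0652 without array 6) and with a trended, robust variance (0.0538). The spread used in the test was shared over the 4 groups. For *Fst* the SD was 0.68 in starved mutants, 0.17 in fed mutants and 1.68 in fed controls.

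**Figure D1:**
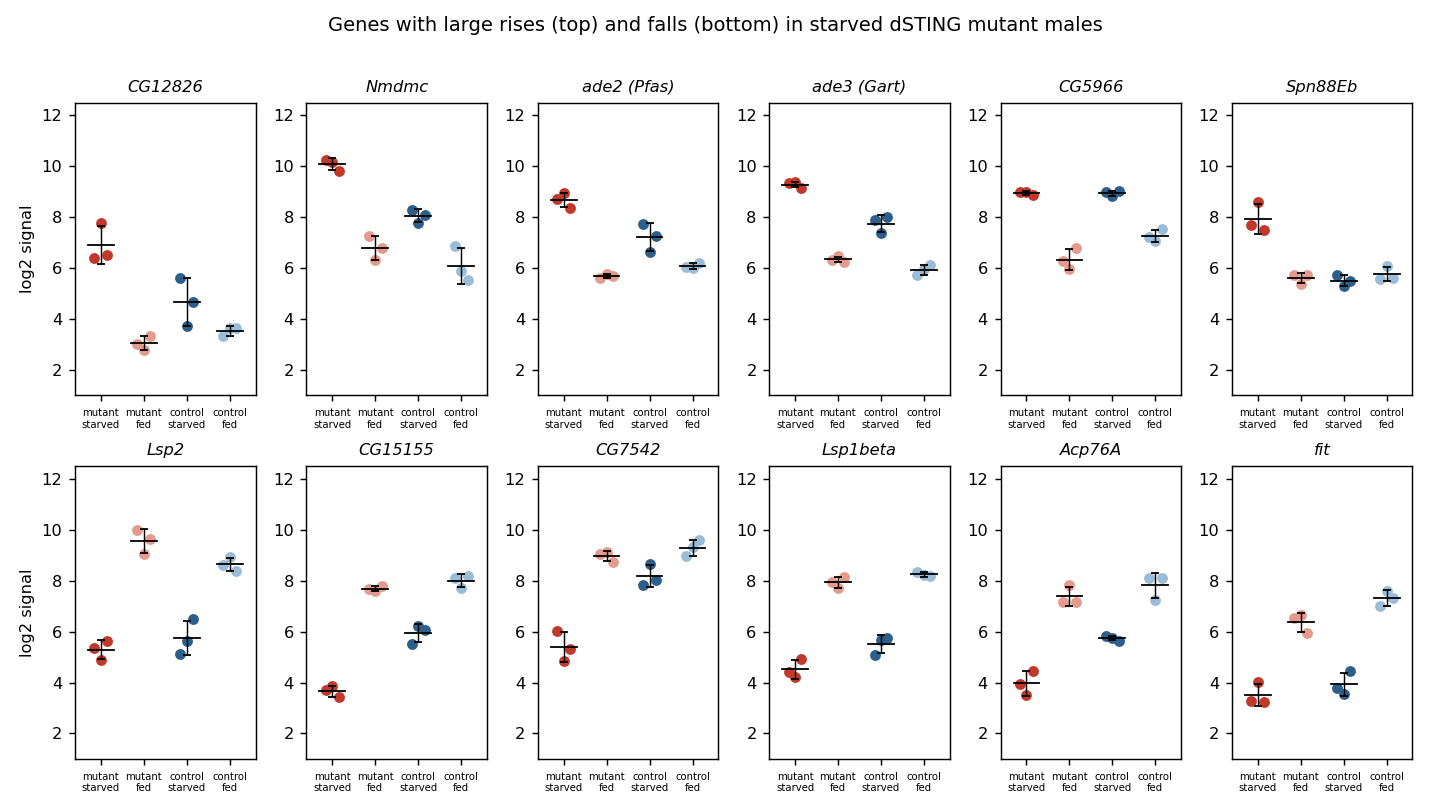
Log2 signal of 12 genes with large changes, 1 point per array, by group from left to right (mutant starved, mutant fed, control starved, control fed), with lines for the mean and bars for the SD of 3 arrays. The top row holds rises, such as *Nmdmc* with starved mutants at 9.82 to 10.25, and the bottom row falls, such as *Lsp2* with starved mutants at 4.9 to 5.64.

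The 15 largest falls included 2 serine proteases, 2 hexamerins and a seminal fluid serpin, beside genes of other or unstated roles. *Jon99Fi*, of the Jonah family of midgut serine proteases, had 2.98, 2.22 and 3.36 in starved mutants, against 7.39, 8.27 and 7.64 in fed mutants (-4.91, standard error 0.9, adjusted p = 0.002). Its standard error drew on all 4 groups, with an SD of 0.58 in starved mutants, 0.45 in fed mutants and 2.64 in fed controls. The sequence of *Jon99Fi* is close to that of *Jon99Fii*, so the signals of the pair may be shared. *Lsp2*, a hexamerin storage protein of the fat body, had 5.35, 4.9 and 5.64 in starved mutants, against 9.98, 9.06 and 9.63 in fed mutants (-4.26, standard error 0.32, adjusted p = 3.7e-06). *Lsp1beta*, another hexamerin, had 4.42, 4.2 and 4.94 in starved mutants, against 7.94, 7.71 and 8.14 in fed mutants (-3.41, standard error 0.2, adjusted p = 6.2e-07). In each of these genes all starved arrays lay below all fed arrays by over 2 log2 units, where lack of overlap itself was a condition of the choice. *CG15155* had 3.71, 3.85 and 3.43 in starved mutants, against 7.66, 7.6 and 7.79 in fed mutants (-4.02, standard error 0.18, adjusted p = 2e-07), with little spread in either group. The serine protease gene *CG7542* (-3.57), the accessory gland serpin *Acp76A* (-3.41), the phosphatidylethanolamine-binding protein gene *Pebp1* (-3.33), the fatty acid elongase *Elo68alpha* (-3.1), the satiety signal *fit* (-2.86) and the odorant binding protein gene *Obp56f* (-2.79) were also among the 15 largest falls, with *CG10514* (-3.25), *CG9259* (-3.2), *CG11892* (-3.03), *CG31233* (-3.02) and *Diedel3* (-2.74).

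Related genes were taken from fixed lists, and each list's counts stand against the 7.3% of all genes that were higher and the 9.52% that were lower. Genes that FOXO is known to turn on, *InR* and *Thor*, rose. Of 32 measured genes of insulin signaling and its targets, 11 were higher and 2 lower (median log2 fold change 0.24, against 0.02 over all genes). *InR*, the insulin receptor, had 7.92, 7.93 and 7.91 in starved mutants, against 5.97, 6.11 and 6.4 in fed mutants (1.76, standard error 0.14, adjusted p = 5.1e-06). *Thor*, the 4E-BP brake on translation, had 11.87, 11.97 and 11.83 in starved mutants, against 10.51, 10.60 and 10.61 in fed mutants (1.31, standard error 0.12, adjusted p = 1.5e-05). Both genes were higher in every starved array, and the starved arrays lay close together. Inside the cell, the insulin receptor substrate *chico* (1.07), the adaptor *Lnk* (0.7), the kinases *Pdk1* (0.8) and *Akt1* (0.41), *foxo* itself (0.63), the growth regulator *dm* (Myc, 0.99) and the sestrin gene *Sesn* (0.43) rose, while the phosphoinositide 3-kinase adaptor *Pi3K21B* fell (-0.35). Among 8 insulin-like peptide genes 1 was called. *Ilp5*, which brain cells secrete in fed flies, had 4.12, 4.44 and 4.11 in starved mutants, against 5.15, 5.04 and 5.3 in fed mutants (-0.94, adjusted p = 0.00062). *Ilp2* (-0.03, adjusted p = 0.89), *Ilp3* (0.25, 0.26), *Ilp6* (-0.26, 0.32) and the binding protein *ImpL2* (0.35, 0.23) did not pass.

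Sugar-sensing factors moved both ways. The strongest fall of the 25 genes of AKH and sugar sensing, of which 4 were higher and 4 lower (median 0.03), was that of *sug* (sugarbabe), a zinc finger factor that sugar turns on. *sug* had 5.05, 5.24 and 5.35 in starved mutants, against 8.22, 7.8 and 7.78 in fed mutants (-2.72, standard error 0.15, adjusted p = 6.2e-07), with no overlap. The sugar-responsive factor *cbt* (cabut, -1.07), the nutrient-responsive peptide gene *CCHa2* (-1.41) and the AKH receptor *AkhR* (-0.78) also fell. The paired sugar sensors *Mio* (Mondo, 0.75) and *bigmax* (0.86), the estrogen-related receptor *ERR* (0.67) and *CG8317* (limostatin, a peptide that curbs insulin release, 0.99) rose. *Akh* itself (0.14, adjusted p = 0.63) and *tobi* (-0.32, 0.73) did not pass.

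Many autophagy genes rose, among them some that start the process. Of 27 measured genes 13 were higher and 1 lower (median 0.27). By step, 3 of 4 genes of the initiation kinase complex, 6 of 9 genes of membrane nucleation and 2 of 10 genes of the conjugation machinery were higher. *Atg1*, the kinase that starts autophagy, had 8.03, 8.35 and 7.78 in starved mutants, against 6.81, 6.79 and 6.89 in fed mutants (1.23, standard error 0.13, adjusted p = 3.8e-05). *Atg18b*, a phosphoinositide-binding protein of the growing membrane, had 9.25, 9.45 and 8.96 in starved mutants, against 7.43, 7.19 and 7.53 in fed mutants (1.83, standard error 0.15, adjusted p = 6.8e-06). No starved value of either gene overlapped with a fed value. *Atg18a* (1.01), *Atg101* (0.82), *Atg9* (0.7), *Atg2* (0.64) and the mitophagy receptor *CG5059* (BNIP3, 0.85) rose too, and the lysosomal regulator *Mitf* fell (-0.29), a call that was lost without starved array 11 (adjusted p = 0.118), starved array 10 (0.0743) or fed arrays 4 (0.0647) or 6 (0.104). The cargo receptor *ref(2)P* was at -0.06 (adjusted p = 0.77), and *Atg8a*, for the protein that coats the autophagosome, rose by 0.35 (adjusted p = 0.019) but lost the call without any 1 of fed arrays 4 (adjusted p = 0.0616) and 5 (0.061) and starved arrays 10 (0.0582) and 11 (0.0885). The count of rises was 8 without starved array 10 and 8 without starved array 11. Of 36 genes of lysosomal enzymes and the proton pump 2 were higher and 1 was lower.

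Among fat storage genes *bmm* rose and *Lsd-1* fell, and others moved either way or did not pass. *bmm*, the main triglyceride lipase of the fat body, had 10.43, 10.53 and 10.17 in starved mutants, against 8.85, 8.37 and 8.68 in fed mutants (1.74, standard error 0.13, adjusted p = 3.7e-06). *Lsd-1*, a perilipin that coats lipid droplets, had 5.45, 6.21 and 6.25 in starved mutants, against 8.58, 8.17 and 8.69 in fed mutants (-2.51, standard error 0.23, adjusted p = 1.4e-05). In these genes the starved and fed arrays did not overlap, and they moved in opposite directions. Of 31 genes of fatty acid and triglyceride synthesis, 5 were higher and 12 lower (median -0.10). The droplet protein gene *Jabba* (-1.77), *CG1946*, of the diacylglycerol acyltransferase family (-1.89), the fatty acid synthases *CG3523* (FASN1, -0.45) and *v(2)k05816* (FASN2, -0.66) and the citrate lyase *ATPCL* (-0.67) were among those that fell. *Lpin* (lipin), an enzyme of diacylglycerol synthesis, rose (1.49, adjusted p = 3.7e-06), as did the regulators *HLH106* (SREBP, 0.74) and *SCAP* (0.54), the last of which lost its call without starved array 11 (adjusted p = 0.0819), starved array 12 (0.0512) or fed array 5 (0.0704). *ACC*, for acetyl-CoA carboxylase (0.05, adjusted p = 0.79), *Desat1* (0.16, 0.2), the droplet protein gene *Lsd-2* (-0.08, 0.78) and the storage lipase *Hsl* (0.12, 0.39) did not pass.

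Fatty acid elongases, which lengthen fatty acids for cuticular hydrocarbons and membranes, fell or did not pass. Of 20 measured elongase genes 11 were lower and 0 higher (median -0.35). *Elo68alpha*, known for its part in making a male pheromone, had 4.73, 3.98 and 4.61 in starved mutants, against 7.37, 7.72 and 7.54 in fed mutants (-3.1, standard error 0.31, adjusted p = 2.6e-05). Fatty acid oxidation did not move as a block, with 3 of 37 genes higher and 10 lower (median -0.22). The acyl-CoA synthetase *CG4500* (1.41) and *CG9547* (1.15), of the acyl-CoA dehydrogenase family, rose. *CG9547* also falls under the pathway terms of lysine degradation and tryptophan metabolism, so its rise is not specific to fatty acid oxidation. The carnitine acetyltransferase *CG1041* (-0.78) and the peroxisomal oxidase *CG17544* (-0.98) fell. *whd*, for the carnitine palmitoyltransferase that admits fatty acids to mitochondria, was at 0.3 (adjusted p = 0.1). Among 28 gut and acid lipases 6 were higher and 11 lower. *CG5966* and *CG6283* (1.15) were among those that rose, and *CG17192* (-2.32), *CG6295* (-2.25) and *mag* (magro, the gut lipase and sterol hydrolase, -1.59) among those that fell.

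Among lipid transport genes, that of the main carrier in the hemolymph fell. *Rfabg* (apolpp), the precursor of the lipophorin particle made by the fat body, had 8.73, 8.63 and 8.86 in starved mutants, against 10.66, 10.63 and 10.68 in fed mutants (-1.92, standard error 0.11, adjusted p = 6.2e-07). The fed arrays lay close together, far above the starved arrays. Of 18 genes of lipoproteins and lipid transport 3 were higher and 7 lower (median -0.41). The transfer protein *Mtp*, which loads lipophorin (-0.56), and the sterol carriers *Npc2d* (-1.94), *Npc1b* (-1.08) and *Npc2b* (-0.86) fell. The lipophorin receptor *LpR1* (1.18) and the lipocalin *NLaz* (0.49) rose.

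Many digestive enzymes fell, maltases apart. Of 16 Jonah proteases 10 were lower and 0 higher (median -1.09), and of 14 trypsins and related proteases 4 were lower and 1, *iotaTry* (0.74), higher. Besides *Jon99Fi*, *Jon65Aii* (-2.69), *Jon65Ai* (-2.46), *Jon25Biii* (-2.41) and *Jon44E* (-1.79) fell most. Copies within the Jon25B, Jon65A, Jon99C and Jon99F clusters are alike in sequence, so their signals are not fully separate. *Jon65Aiii* lost its call without starved array 11 (adjusted p = 0.09), fed array 5 (0.067) or fed array 6 (0.069). Of 13 lysozymes and lysosomal-type mannosidases 7 were lower, led by *CG9463* (-1.58) and the gut lysozyme *LysC* (-1.54), which has a close copy in *LysD* (-1.08). *CG9463* lost its call without starved array 11 (adjusted p = 0.0768) or fed array 4 (0.0673). Of 10 maltases, which split disaccharides, 5 were higher and 0 lower. *Mal-B2* had 9.01, 9.18 and 8.77 in starved mutants, against 7.37, 7.06 and 7.12 in fed mutants (1.8, standard error 0.14, adjusted p = 5.7e-06). The counts of this group rested on few arrays: falls numbered 3 without fed array 4, 4 without starved array 10 and 3 without starved array 11, and rises 3 without fed array 4 and 3 without starved array 12. The amylase *Amy-p* (0.41, adjusted p = 0.17) and the maltase *Mal-A1* (0.32, 0.11) did not pass.

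Genes of glycolysis, gluconeogenesis and glycogen moved both ways. Of 31 genes 4 were higher and 6 lower (median -0.10). *Pepck*, the entry enzyme of gluconeogenesis, had 10.12, 10.07 and 9.97 in starved mutants, against 9.14, 8.49 and 9.02 in fed mutants (1.17, standard error 0.16, adjusted p = 0.00026). *fbp*, for fructose bisphosphatase, rose by 0.49, while the glycogen branching enzyme *AGBE* (-0.7), the lactate dehydrogenase *ImpL3* (-0.57) and the glycogen phosphorylase *GlyP* (-0.38) fell. *fbp* lost its call without any 1 mutant array but fed array 4, with adjusted p between 0.0549 and 0.123, and *GlyP* without starved array 11 (adjusted p = 0.09), fed array 4 (0.0869) or fed array 6 (0.0552). The count of rises was 1 or 2 without any 1 of fed arrays 4, 5 and 6 and starved arrays 10 and 11.

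Purine synthesis with the serine and folate steps that feed it held the highest median of the lists. Of 16 measured genes 13 were higher and 0 lower (median 1.11). In purine synthesis, *ade2*, for phosphoribosylformylglycinamidine synthase, had 8.69, 8.93 and 8.37 in starved mutants, against 5.6, 5.76 and 5.67 in fed mutants (2.99, standard error 0.22, adjusted p = 3.4e-06). *ade3* (Gart) had 9.33, 9.36 and 9.15 in starved mutants, against 6.33, 6.45 and 6.25 in fed mutants (2.93, standard error 0.15, adjusted p = 5.6e-07). The starved arrays of both genes lay over 2 log2 units above the fed arrays. *AdSL* (1.85), *ade5* (1.4), *Prat2* (1.05) and *AdSS* (0.57) of the same route rose. In serine synthesis, the phosphoserine phosphatase *aay* (1.99), the phosphoserine aminotransferase *CG11899* (1.54) and the phosphoglycerate dehydrogenase *CG6287* (0.68) rose, and in the folate cycle *Nmdmc*, *pug* (1.17) and the serine hydroxymethyltransferase *CG3011* (1.0) rose. The members that did not pass were *bur*, *Ts* and *Prat*, between -0.04 and 0.05.

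**Figure D2:**
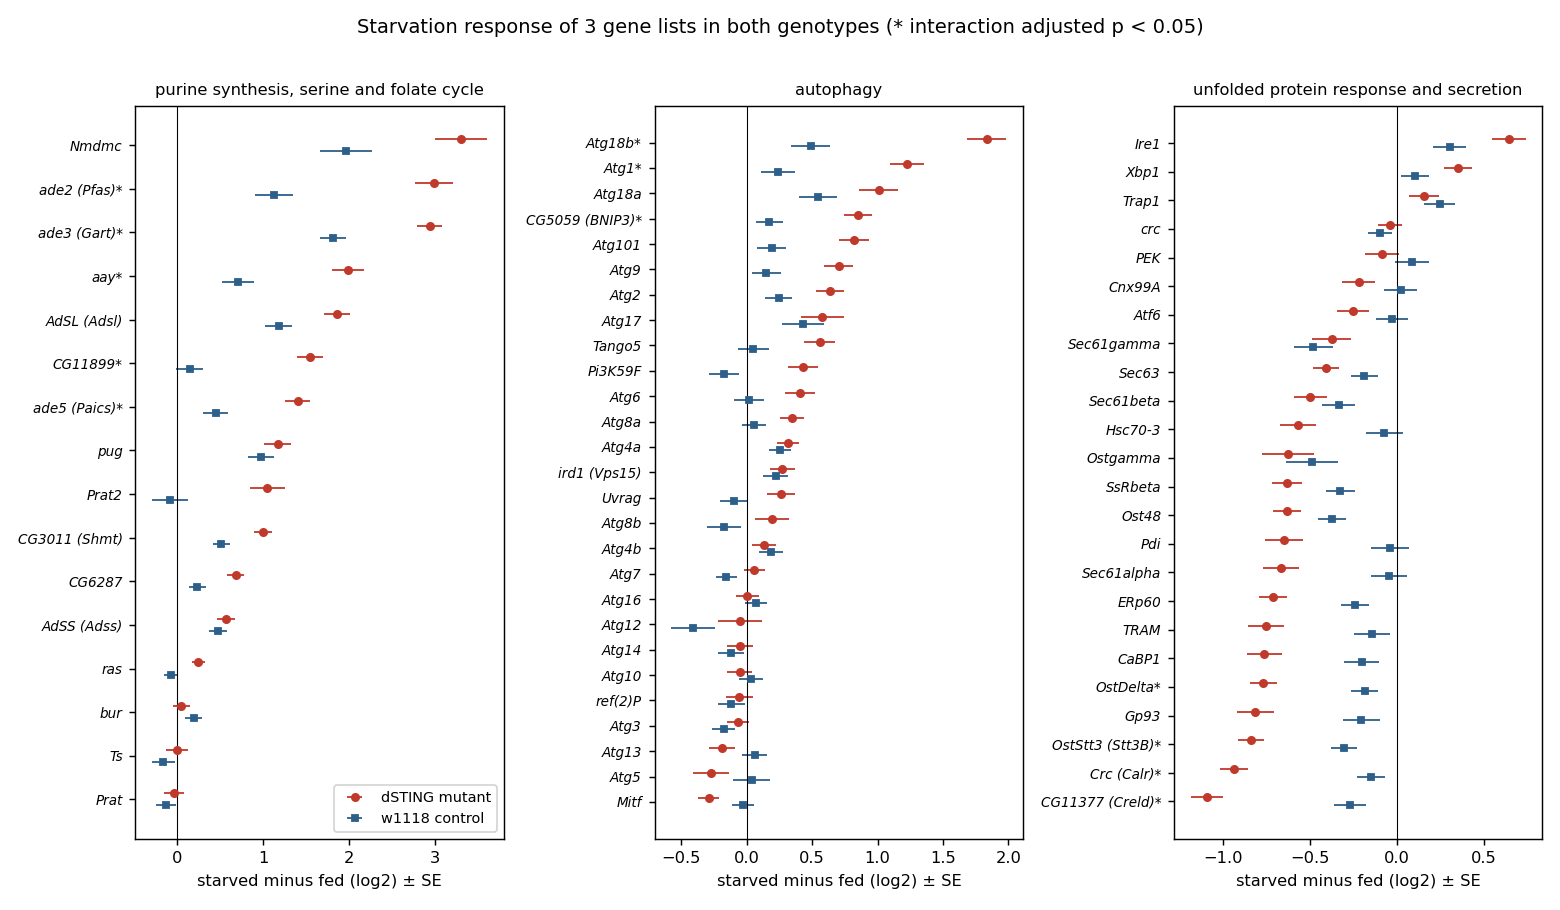
Log2 fold change (starved minus fed) with its standard error for every member counted in 3 gene lists, in *dSTINGΔ* mutants (circles) and w1118 controls (squares), 3 arrays per group, with an asterisk where the interaction passed an adjusted p of 0.05. In the left panel 13 of 16 mutant values were called higher, in the middle panel 13 of 27, and in the right panel 17 of 24 were called lower.

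Amino acid breakdown rose in part. Of 31 genes 13 were higher and 2 lower (median 0.11). *CG3999* (a subunit of the glycine cleavage system, 1.92), the sarcosine dehydrogenase *CG6385* (1.89) and the glycine cleavage enzyme *CG6415* (0.7) rose, as did enzymes of phenylalanine and tyrosine breakdown, *Hn* (0.77), *CG1461* (Tat, 0.64), *hgo* (0.94) and *Faa* (1.01). *CG6188*, for glycine N-methyltransferase, fell (-0.99). *CG3999* had 6.8, 6.91 and 6.29 in starved mutants, against 5.1, 4.31 and 4.82 in fed mutants, with no overlap (standard error 0.23, adjusted p = 9.2e-05).

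Genes for protein entry into the ER and folding inside it fell together. Of 24 genes of the unfolded protein response and secretion, 17 were lower and 2 higher (median -0.63). *Crc* (Calr), the ER chaperone calreticulin, had 9.35, 9.38 and 9.52 in starved mutants, against 10.32, 10.36 and 10.38 in fed mutants (-0.94, standard error 0.08, adjusted p = 8.7e-06). *Gp93*, an ER chaperone of the Hsp90 family, had 6.8, 7.2 and 7.15 in starved mutants, against 7.83, 7.94 and 7.83 in fed mutants (-0.82, standard error 0.11, adjusted p = 0.00016). The groups did not overlap, and the starved arrays spread wider for *Gp93* than for *Crc*. *CG11377* (Creld, -1.09), the oligosaccharyltransferase subunits *OstStt3* (-0.84), *OstDelta* (-0.77) and *Ost48* (-0.63), the translocon genes *Sec61alpha* (-0.67) and *TRAM* (-0.75) and the disulfide isomerases *CaBP1* (-0.76), *ERp60* (-0.71) and *Pdi* (-0.65) fell. The 2 that rose, the stress sensor *Ire1* (0.64) and its target *Xbp1* (0.35), signal ER stress rather than carry out folding. Of 46 proteasome genes 15 were lower, led by *Rpn12* (-0.75) and *Prosalpha4* (-0.74), and 1, the testis form *Rpt4R* (0.43), higher (median -0.20). These falls numbered 9 without fed array 6, 9 without starved array 10 and 8 without starved array 12. Of 92 cytosolic ribosomal protein genes 0 were lower and 1 was higher, *RpL24-like* (0.85), which acts in ribosome assembly, and of 90 oxidative phosphorylation genes 1 was higher and 3 lower. The testis-specific complex I gene *CG8102* was the 1 that rose (0.4), and *Cyt-c-p* (-0.4), *CG5548* (-0.29) and *l(1)G0230* (-0.26) were the 3 that fell, a count that was 1 (*CG5548* and *l(1)G0230* lost) without any 1 of the 6 mutant arrays or control starved array 7.

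**Figure D3:**
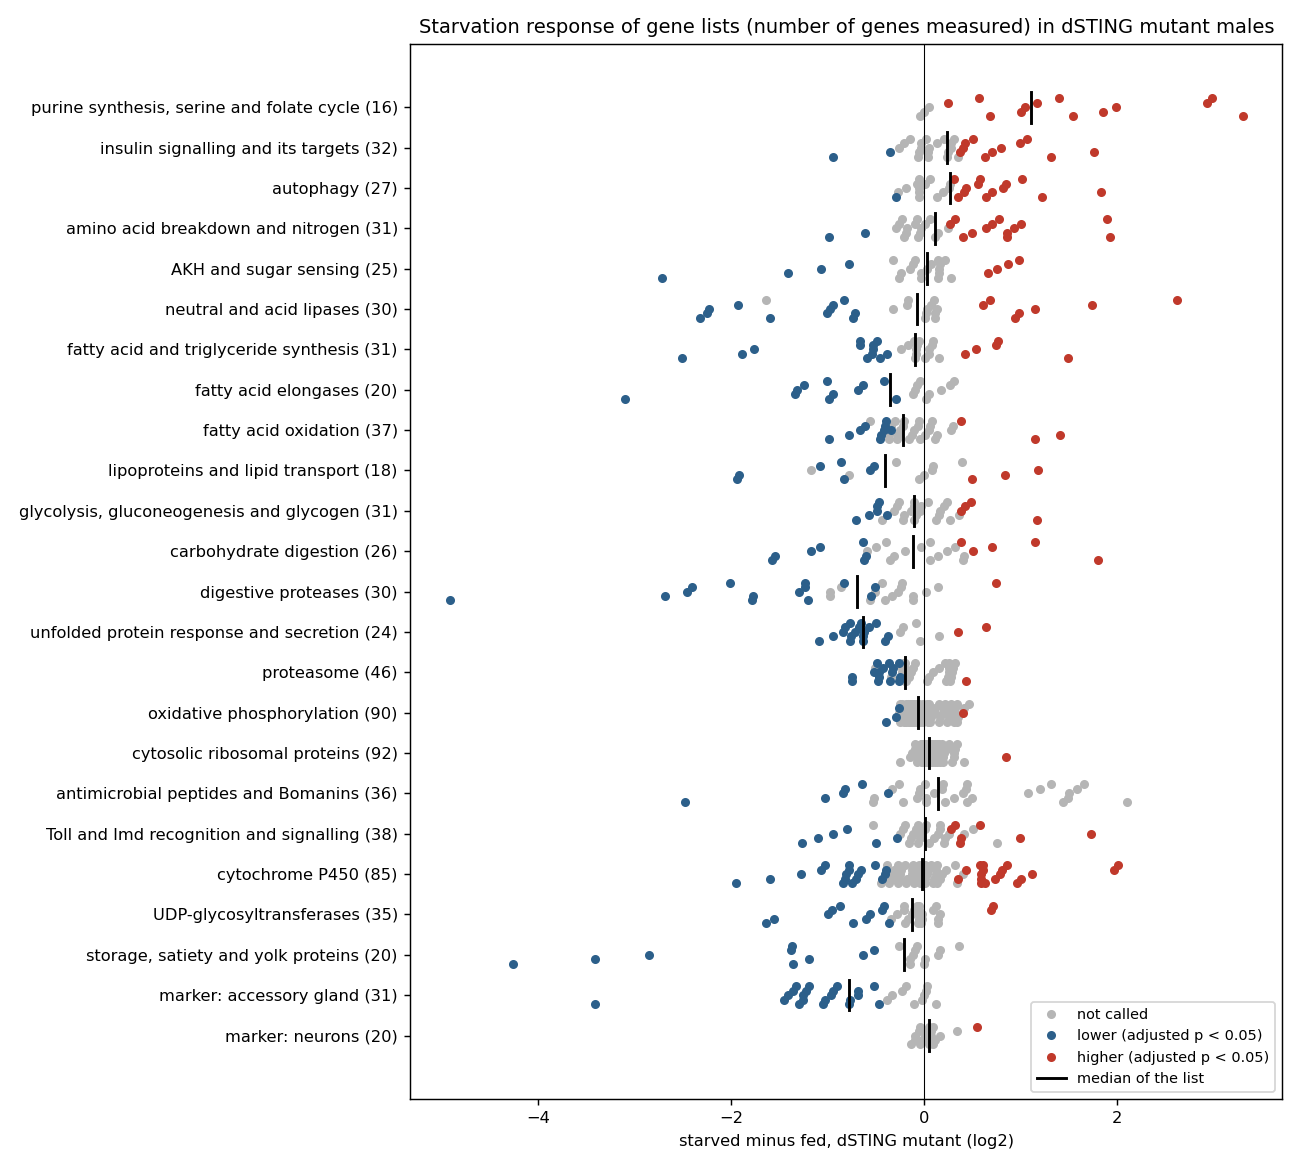
Log2 fold change (starved minus fed, *dSTINGΔ* mutants) of every gene counted in 24 lists, 1 point per gene, red where called higher, blue where called lower and grey where not called, with a black bar at the list median. Medians ran from -0.78 for accessory gland markers to 1.11 for purine synthesis, serine and folate. In the uncalled antimicrobial peptide genes between 1.08 and 2.10, starved mutant array 11 lay over 2 log2 units above both other starved mutant arrays.

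Immune genes gave a mixed picture, part of which was array 11. *Rel*, for Relish, the NF-κB factor of the Imd pathway, had 8.81, 8.97 and 8.65 in starved mutants, against 7.22, 6.97 and 7.06 in fed mutants (1.73, standard error 0.11, adjusted p = 1.2e-06). All 3 starved arrays were high by a like amount, and without array 11 the rise was 1.65 (adjusted p = 9.8e-06). Antimicrobial peptide genes, which Relish is known to turn on, were not high in all 3 arrays. *AttC*, for attacin C, had 4.11, 8.98 and 4.44 in starved mutant arrays 10, 11 and 12, against 4.28, 4.31 and 4.18 in fed mutants (1.58, standard error 0.9, adjusted p = 0.27). *Drs*, for drosomycin, had 6.53, 8.98 and 6.68 in starved mutants, against 5.74, 6.82 and 5.32 in fed mutants (1.44, adjusted p = 0.11). In both genes, which were chosen after their values were seen, array 11 lay over 2 log2 units above the other starved arrays. In *Drs*, starved arrays 10 and 12 also lay above fed arrays 4 and 6. Of 36 antimicrobial peptide and Bomanin genes 0 were higher and 6 lower with all arrays (median 0.14), and 1 was higher without fed array 4 and 2 without starved array 10. Without array 11 0 were higher and 7 lower, with a median of -0.12 and no member above 0.64. The 6 that fell were *Drsl4* (-2.47), *IM14* (-1.03), *IM4* (-0.82), *CG5791* (-0.84), *CG15067* (-0.64) and *CG5778* (-0.37), of which the last 3 are Bomanins. *CG15067* and *CG5778* lost the call without any 1 of fed arrays 4 and 5 and starved arrays 10 and 12, with adjusted p between 0.0514 and 0.11. Of 38 genes for recognition and signaling in the Toll and Imd pathways 7 were higher and 6 lower (median 0.01). The Imd signaling adaptor *Tab2* (1.0) and the Toll inhibitor *cact* (0.58) rose, and the peptidoglycan-degrading enzymes *PGRP-SC2* (-1.26) and *PGRP-SC1a* (-1.1) fell. The count of rises was 4 without fed array 5, 4 without starved array 10 and 4 without starved array 11. The Turandot stress peptides *TotX* (-2.03) and *TotA* (-1.72) fell.

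**Figure D4:**
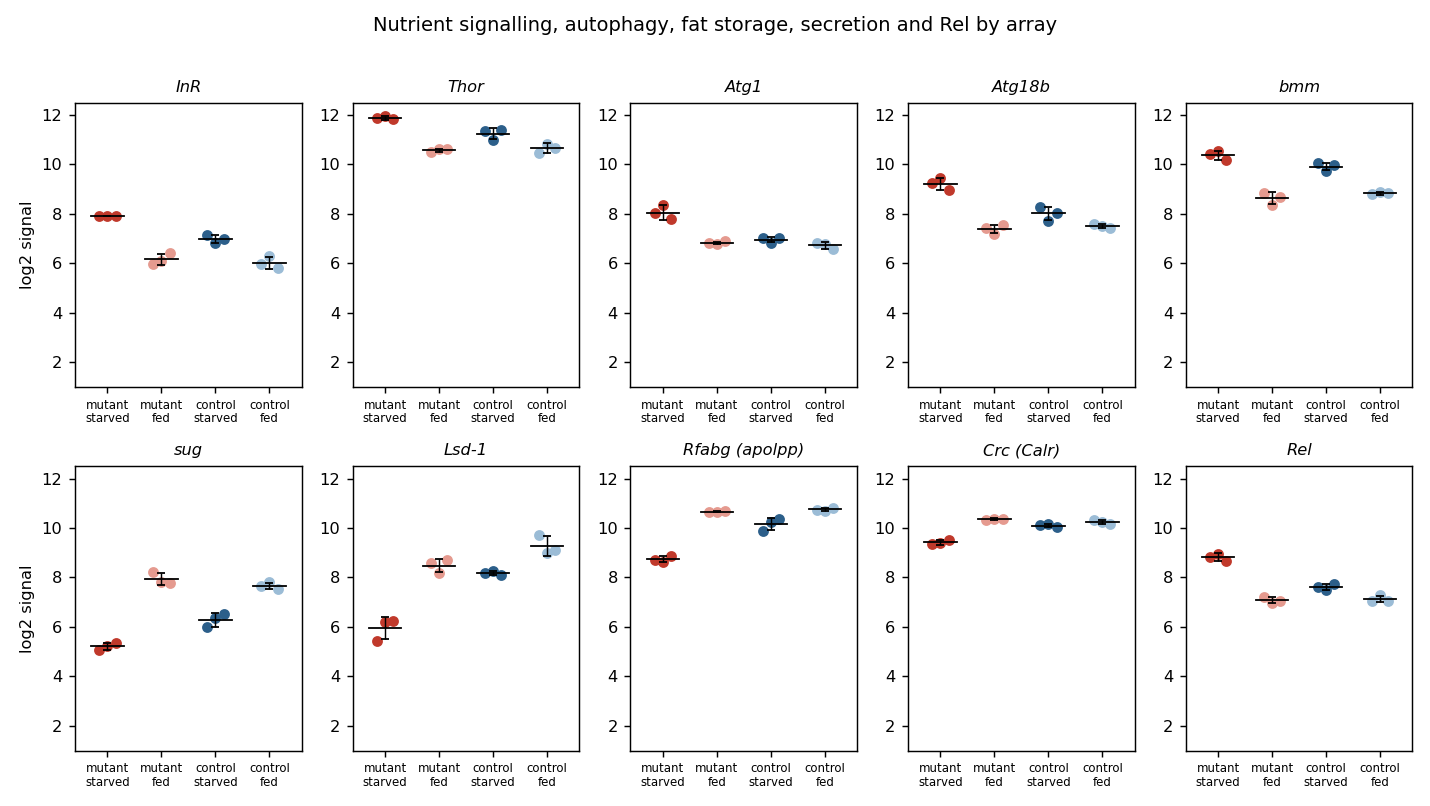
Log2 signal of 10 genes of nutrient signaling, autophagy, fat storage, secretion and immunity, 1 point per array, by group from left to right (mutant starved, mutant fed, control starved, control fed), with lines for the mean and bars for the SD of 3 arrays. The starved mutant arrays form the highest group in the 5 genes of the top row and in *Rel*, and the lowest group in *sug*, *Lsd-1*, *Rfabg* and *Crc*.

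Cytochrome P450 genes changed in both directions, and changes among UDP-glycosyltransferases were mostly falls. Of 85 cytochrome P450 genes, whose products oxidize hormones, fatty acids and foreign compounds, 18 were higher and 18 lower (median -0.02). *Cyp4ac3* (2.01) and *Cyp4e3* (1.96) rose most and *Cyp4d14* (-1.95) and *Cyp4d21* (-1.6) fell most. *Cyp4d14* had 4.3, 4.84 and 4.98 in starved mutants, against 6.94, 6.62 and 6.42 in fed mutants. Of 35 UDP-glycosyltransferases 2 were higher and 11 lower, and of 35 glutathione S-transferases 2 were higher and 5 lower (8 lower without control starved array 9). Of 39 heat shock and oxidative stress genes 9 were lower, among them the peroxiredoxin *Jafrac1* (-0.75), and 2 higher, a copy of *Hsp70* (*Hsp70Bbb*, 1.11), which cannot be separated from its near-identical copies, and the glutathione synthesis enzyme *Gclc* (0.38). Both rises lost the call without starved array 11, *Hsp70Bbb* at an adjusted p of 0.132 and *Gclc* at 0.0713, and *Gclc* also without any other 1 of the mutant arrays (0.0582 to 0.0785). *Hsp70Bbb* lost it without fed arrays 5 (0.0745) or 6 (0.122) or starved array 12 (0.0624) too. The metallothionein *MtnE* had 3.97, 4.69 and 3.84 in starved mutants, against 2.13, 2.08 and 2.26 in fed mutants (2.01, adjusted p = 0.00023), and was higher in every starved array.

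Some secreted proteins of the fed state fell. Of 20 storage, satiety and yolk protein genes 9 were lower and 0 higher (median -0.21). *fit*, a fat body peptide that rises after a protein meal, had 3.28, 4.02 and 3.24 in starved mutants, against 6.53, 6.64 and 5.93 in fed mutants (-2.86, standard error 0.27, adjusted p = 1.8e-05), and *to* (takeout), which is tied to feeding and the clock, fell by 1.38 on the log2 scale. Of 47 odorant binding protein genes 10 were lower and 0 higher. *Obp56f* had 6.56, 6.35 and 6.8 in starved mutants, against 9.23, 9.6 and 9.23 in fed mutants (-2.79, standard error 0.16, adjusted p = 6.2e-07), and *Obp56e* (-1.6) and *Obp22a* (-1.02) fell too. Of 31 accessory gland genes, which encode seminal fluid proteins, 21 were lower and 0 higher (median -0.78), and their summed log2 signal was 14.2 to 14.43 in starved mutants, against 14.79 to 15.14 in fed mutants. *Acp76A* had 3.95, 3.5 and 4.46 in starved mutants, against 7.15, 7.82 and 7.18 in fed mutants (-3.41, standard error 0.27, adjusted p = 4.9e-06), and the sex peptide *SP* fell by 0.68 on the log2 scale, a call lost without starved array 11 (adjusted p = 0.0535) or fed arrays 4 (0.0506) or 5 (0.059).

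Summed signals of markers of several other tissues also differed between starved and fed mutants. Fat body markers summed to 12.26 to 12.46 on the log2 scale in starved mutants, against 12.98 to 13.14 in fed mutants, with 6 of 17 lower and 2 higher. Their median log2 fold change was only -0.08, with 8 of 17 values above 0, and the largest fall was that of *Lsp2* (-4.26). Marker lists thus hold genes reported above, and their sums are not independent of those changes. Gut markers summed to 12.88 to 13.11 in starved mutants, against 13.22 to 13.33 in fed mutants, with 4 of 13 lower. Malpighian tubule markers summed to 10.01 to 10.07 in starved mutants, against 10.19 to 10.24 in fed mutants, with 4 of 13 lower (2 without fed array 4 or starved array 11). These are the main tissues of digestion, storage and excretion. Hemocyte markers summed to 9.49 to 9.59 in starved mutants, against 9.73 to 9.88 in fed mutants, with 5 of 18 lower. Muscle markers summed to 13.66 to 13.88 in starved mutants, against 13.95 to 14.02 in fed mutants, with 5 of 19 lower (1 without starved array 11, 2 without fed array 5 or 6, and 3 without fed array 4 or starved array 10). Testis markers summed to 13.52 to 13.62 in starved mutants, against 13.27 to 13.5 in fed mutants, with 1 of 22 higher. Neuron (1 of 20 higher) and photoreceptor markers (1 of 15 higher) overlapped in their sums. The rises among testis and photoreceptor markers numbered 0 without array 11. The sums of fat body, gut, Malpighian tubule, hemocyte, muscle, testis and accessory gland markers did not overlap between starved and fed mutants, and their part in the changes of lipid, digestive, secretory and seminal genes was not tested. In controls 7 of 20 neuron markers were higher and 0 lower in starved flies (median 0.45). Their sums were 11.49 to 11.76 in starved and 10.93 to 11.51 in fed controls. Fat body sums were 12.93 to 12.95 in starved and 13.19 to 13.32 in fed controls. The part of such differences in the comparison of the genotypes was not tested.

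Set against the controls, which have their own 6 arrays, the mutants had more called genes with all arrays, an order that turned over under 2 alternatives. In w1118 controls starvation changed 1522 genes (11.2%), 770 higher (5.68%) and 752 lower (5.55%), and the root mean square log2 difference over all genes was 0.402 in mutants and 0.308 in controls. The genotypes shared 266 rises (26.9% of the mutant list, 34.5% of the control list) and 479 falls (37.1% of the mutant list, 63.7% of the control list), and 6 genes were called in opposite directions. A call in mutants alone does not show that the genotypes differ, so the difference of the 2 responses was tested for each gene. This interaction passed for 180 genes (1.33%), with the starvation response higher in mutants for 80 (0.59%) and lower for 100 (0.738%). Of the 990 rises in mutants 74 had an interaction in the same direction, and of the 1290 falls 93. This count depended on single arrays. It was 60 without control starved array 8 and 916 without control fed array 1, and leaving out any other array but control fed array 3 or control starved array 9 also moved it by over 1.5 times. The control count of 1522 was 3002 without control fed array 1 (2622 in mutants), 480 without control fed array 3, 360 without control starved array 7 and 552 without control starved array 8. With weights for array quality 3315 genes were called in mutants and 4528 in controls.

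**Figure D5:**
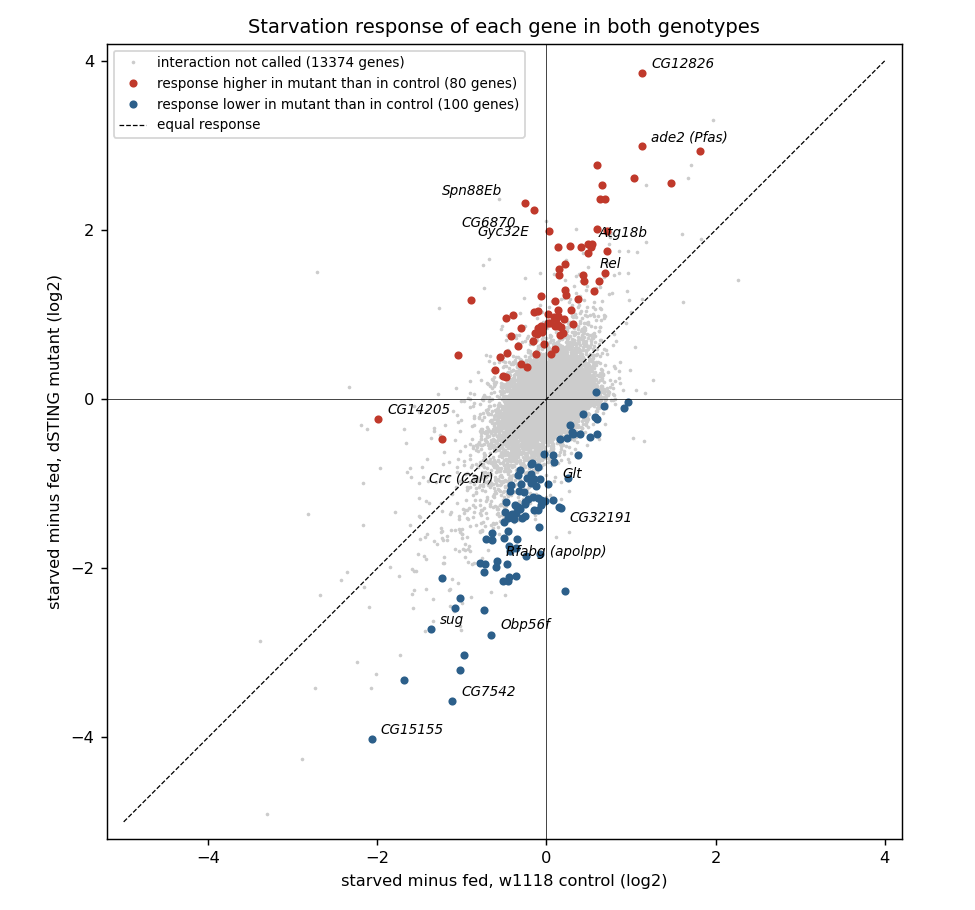
Each point is 1 of 13554 genes, placed by its starvation response (log2, starved minus fed) in w1118 controls on the x axis and in *dSTINGΔ* mutants on the y axis, with a dashed line where the responses are equal. Red points (80 genes, response higher in mutants) and blue points (100 genes, response lower) passed the interaction test, and *Rel*, *Gyc32E* and *CG32191* lie near 0 to 0.5 for controls and far from 0 for mutants.

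Some of these genes responded in mutants and little in controls. *Gyc32E*, a receptor guanylate cyclase, had 4.9, 5.12 and 4.7 in starved and 2.84, 2.97 and 2.95 in fed mutants, and 2.78, 2.62 and 2.81 in starved and 2.79, 2.6 and 2.72 in fed controls (interaction 1.96, standard error 0.15, adjusted p = 0.0002). *Rel* had 7.63, 7.5 and 7.75 in starved and 7.06, 7.28 and 7.06 in fed controls, a change of 0.5 against 1.73 in mutants (interaction 1.23, adjusted p = 0.0036). Starved mutants were the highest group in each gene, above every other array. *Spn88Eb* had 7.71, 8.58 and 7.5 in starved and 5.74, 5.36 and 5.71 in fed mutants, and 5.73, 5.31 and 5.48 in starved and 5.58, 6.09 and 5.62 in fed controls (interaction 2.58, adjusted p = 0.0037, adjusted p = 0.0033 without array 11). *CG32191* had 3.74, 3.66 and 3.82 in starved and 5.13, 4.91 and 5.01 in fed mutants, and 3.81, 3.86 and 3.75 in starved and 3.74, 3.62 and 3.61 in fed controls (interaction -1.43, adjusted p = 0.00023). Here it was the fed mutants that stood above the other groups, and starved mutants lay at the level of controls. *CG14205* was at 3.09, 3.24 and 3.1 in starved and 3.69, 3.28 and 3.17 in fed mutants, and at 2.96, 3.02 and 3.13 in starved and 4.85, 5.35 and 4.87 in fed controls (interaction 1.75, adjusted p = 0.0035), so only fed controls were high.

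Other genes responded in both genotypes and further in mutants. *Rfabg* had 9.89, 10.24 and 10.35 in starved and 10.74, 10.71 and 10.81 in fed controls, a change of -0.59 against -1.92 in mutants (interaction -1.33, adjusted p = 0.0035). *ade2* had 7.73, 6.64 and 7.25 in starved and 6.04, 6.01 and 6.2 in fed controls (change 1.13, interaction 1.86, adjusted p = 0.013). *sug* had 5.98, 6.37 and 6.51 in starved and 7.65, 7.8 and 7.53 in fed controls (change -1.37, interaction -1.35, adjusted p = 0.013). In each of these genes the starved mutants lay outside the range of the starved controls. In the purine, serine and folate list 5 interactions passed, all higher in mutants (*ade2*, *ade3*, *aay*, *CG11899* and *ade5*), in the autophagy list 3 (*Atg18b*, *Atg1* and *CG5059*), all higher, and in the secretion list 4 (*Crc*, *CG11377*, *OstStt3* and *OstDelta*), all lower. Of these 12 interactions, those of *ade2*, *CG11899*, *Atg18b*, *Crc* and *CG11377* passed whichever array was left out. Without starved mutant array 11 the adjusted p was 0.076 for *ade3*, 0.103 for *aay*, 0.106 for *ade5*, 0.115 for *CG5059*, 0.0911 for *OstStt3* and 0.0777 for *OstDelta*. *Atg1* passed without that array (0.038) and lost the call without 6 others. In controls 8 of 16 genes of the purine, serine and folate list were higher and 0 lower, 1 of 27 autophagy genes was higher and 0 lower, and 0 of 24 secretion genes were higher and 5 lower. *InR* (interaction 0.79, adjusted p = 0.068) and *Thor* (0.73, 0.057) did not pass, nor did any Jonah protease, elongase or accessory gland gene. In the same lists 9 of 16 Jonah proteases, 7 of 20 elongases and 18 of 31 accessory gland genes were lower in starved than in fed controls. Of 85 cytochrome P450 genes 2 were higher and 8 lower in controls, and 4 had an interaction.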

How the data were processed

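Total RNA was hybridized to Affymetrix Drosophila Gene 1.0 ST arrays. The authors normalized the arrays by RMA (per the submitters' processing notes with affy 1.48.0 and R 3.2.0) and deposited a table of log2 values, 1 per array for each of 13554 genes. Their sample records hold the same log2 values within 0.005, gene by gene, when the values of each group are sorted. Columns were matched to groups and not to single samples. The deposited table also holds the authors' own comparisons, ratio or fold columns and p-values, which were not used. The genome build and probe positions are not given in the sources used here. Older symbols were matched to current names through RefSeq assembly GCF_000001215.4, where 13263 of the Entrez identifiers were found. Of the genes 224 have a blank symbol.

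A model with a mean for each of the 4 groups was fitted with limma 3.58.1 in R 4.3.3 and moderated by empirical Bayes (8 residual and 4.499 prior degrees of freedom), and p-values were adjusted over 13554 genes by the Benjamini-Hochberg method. Contrasts were starved minus fed in mutants, the same in controls, and their difference (interaction). The scripts were tested on simulated data. The number of arrays, 3 per group, limits the precision of every value. Arrays are called by the numbers of the table.

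The text names, among genes with a symbol, the 15 genes that rose and the 15 that fell most among those called without overlap between the mutant groups, up to 4 called members of each of 43 gene lists, the 8 smallest interaction p-values in each direction, and a fixed set of nutrient genes. In the list of purine synthesis, serine and folate, 1 gene is not reported here and was left out of the list's counts and median. Other genes named were chosen after their values were seen. The comparison, the lists and the rule were all chosen with earlier results of these data known. Alternatives tried were the 6 mutant arrays alone, a replicate block, trended robust variances, weights for array quality and centring of each array on its median. Others were only genes above the median signal, the log2 values of the sample records and leaving out each array in turn. An adjusted p under 0.01 and a fold change over 1.4 were tried for counts over all genes only, not for named genes or lists.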

Additional observations from a re-analysis of the deposited data

Results flagged for a closer look

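The named genes below were picked out because their starvation response differed between the genotypes, by the interaction test of the difference itself at an adjusted p under 0.05. There were 45 of them. Values are the response in *dSTINGΔ* mutants minus the response in w1118 controls on the log2 scale, so a positive value means a response that was higher in mutants.

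The response was higher in mutants for *CG12826* (2.72), *Spn88Eb* (2.58), *CG6870* (2.38), *snoRNA:Me28S-C1237* (2.17), *Gyc32E* (1.96), *CG42751* (1.87), *ade2* (1.86), *CG14205* (1.75), *CG5953* (1.73), *CG5955* (1.67), *atk* (1.57), the pupal cuticle gene *Pcp* (1.54), *Cyp4ac3* (1.42), *Mal-B2* (1.39), *Atg18b* (1.35), *Rel* (1.23), *ade3* (1.12), *GIIIspla2* (1.09), *Atg1* (0.99), *LpR1* (0.81), *Lpin* (0.81), *CG5059* (0.68) and the glutathione S-transferase *GstT4* (0.49). In *CG14205* this difference came from a fall in controls (-1.99), with -0.24 in mutants.

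The response was lower in mutants for *CG7542* (-2.45), *CG9259* (-2.18), *Obp56f* (-2.13), *CG31233* (-2.04), *CG15155* (-1.95), *CG13155* (-1.75), *CG31493* (-1.73), *Pebp1* (-1.64), *Cyp4d14* (-1.49), *CG32191* (-1.43), *Drsl4* (-1.39), *sug* (-1.35), *Rfabg* (-1.33), the UDP-glycosyltransferase *CG30438* (-1.14), the potassium channel *Irk3* of the Malpighian tubule (-1.13), the secreted glutactin *Glt* (-1.02), *Nplp2* (-0.95), *CG16926* (-0.94), *CG11377* (-0.82), *Crc* (-0.79), *OstDelta* (-0.58) and *OstStt3* (-0.53).

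Of the 45 genes, 27 kept the call under every alternative that tested them (17 for genes below the median signal, 18 for the rest) and 18 lost it under at least 1, with 0 reversed. The 27 include *Gyc32E*, *Rel*, *Spn88Eb*, *CG6870*, *ade2*, *Atg18b*, *sug*, *Rfabg*, *Crc* and *CG32191*. Without starved mutant array 11, 14 lost the call, among them *CG12826* (adjusted p = 0.0911) and *ade3* (0.076). *Atg1* kept it without array 11 (0.038) and lost it under 6 of 18 alternatives, each the loss of 1 array, with a largest adjusted p of 0.0825 without control starved array 8.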

How the results depend on the processing

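All 174 called named genes kept their direction under every alternative that tested them, and 156 kept the call. Of the 174, 140 were tested under all 19 alternatives and 34 under all but the one limited to genes above the median signal. Deviations of starved and fed mutants of the same label number correlated at r = -0.142, 0.076 and 0.054 for numbers 1, 2 and 3. Pairs of different numbers ranged from -0.157 to 0.159. With 3 samples per group these values cannot tell whether samples of a number share a batch, which was not tested otherwise. With a replicate block on the values of the sample records the mutant comparison called 2075 genes, the interaction 95 (36 higher, 59 lower). Leaving out 1 array gave 1583 to 2622 calls in mutants (598 to 1153 higher, 960 to 1469 lower), 360 to 3002 in controls and 60 to 916 for the interaction (26 to 419 higher, 34 to 497 lower). Array quality weights gave 1544 rises in mutants, 4528 calls in controls and 2096 interactions (966 higher, 1130 lower). With only genes above the median signal, 161 interactions were lower. At an adjusted p under 0.01 the counts were 1311 in mutants (496 higher, 815 lower), 320 in controls and 27 interactions (14 higher, 13 lower). Over 1.4 fold they were 1364 in mutants (496 higher) and 778 in controls. Both thresholds are stricter by construction. The cause of the other shifts was not tested. Of 33 list counts of 5 or more genes, 13 moved by over 1.5 times under at least 1 alternative. Signals near the lower end of the table, such as *CG1667* in mutants, bound a level from above only, and its change with starvation was not past the threshold under any alternative.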

Other observations

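In 5 other gene groups the share of called genes in starved against fed *dSTINGΔ* mutants was not above the 16.8% of all genes. It was 12.8% for cuticle proteins, 12.2% for mitochondrial ribosomal proteins and 7.32% for ribosome biogenesis. For neuropeptides (15.6%) and clock genes (16.7%) it lay close to that of all genes. Of 117 cuticle protein genes 4 were higher and 11 lower (median log2 fold change -0.02), with *Pcp* (1.81) and *Cpr67Fb* (1.17) the largest rises and *Cpr49Ab* (-1.87) and *Cpr49Ae* (-1.45) the largest falls. These falls numbered 6 without any 1 of fed arrays 4 and 6 and starved array 10, and 7 without starved array 11. Of 32 neuropeptide genes 1 was higher, tachykinin *Tk* (0.26), and 4 were lower, *CCHa2*, *Nplp2*, *Ilp5* and the drosulfakinin gene *Dsk* (-0.49). *Tk* lost its call without any 1 of the mutant arrays (adjusted p = 0.0707 to 0.131) or control starved array 8 (0.0526), and *Dsk* without starved array 11 (0.0772) or fed arrays 4 (0.0837) or 6 (0.0503). Of 74 mitochondrial ribosomal protein genes 9 were lower, led by *mRpL39* (-0.74), and 0 higher. As all were falls, their 12.2% stands against 9.52% lower over all genes. In controls 9 were lower and 0 higher too, where 5.55% of all genes were lower. The mutant count of falls was 3 without fed array 4, 5 without any 1 of fed array 6 and starved arrays 10 and 11, and 14 without control fed array 3. Of 41 ribosome biogenesis genes 3 were higher, *Non1* (0.7), *CG4364* (0.66) and *Ns2* (0.34, lost without fed array 4 at an adjusted p of 0.0598 or starved array 10 at 0.0797), and 0 lower. Of 12 clock genes 1, *vri* (0.48), was higher and 1, *to*, lower.

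Some pathway terms of the deposited table, looked at after the values were seen, held many changed genes. Of 77 genes of the term endocytosis 15 were higher and 1 lower in starved than in fed mutants (median 0.13), and in controls 3 were higher and 1 lower. Of 51 genes of arginine and proline metabolism 2 were higher and 18 lower in mutants (median -0.25), and in controls 3 were higher and 1 lower. Of 58 peroxisome genes 4 were higher and 18 lower in mutants (median -0.20), and in controls 4 were higher and 8 lower. Of 21 genes of protein export 10 were lower and 0 higher (median -0.32), and of 36 genes of N-glycan biosynthesis 13 were lower and 1 higher (median -0.19), which are terms that share members with the secretion list. In controls 6 genes of protein export and 7 of N-glycan biosynthesis were lower, and 0 and 1 higher. These shares stand against 7.3% higher and 9.52% lower over all genes in mutants, and 5.68% and 5.55% in controls.

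Of the small nucleolar RNAs, taken by the symbols of the table, 9 were called higher in mutants, 0 were called lower and 212 were not called. The share called higher was thus below the 7.3% of all genes. The largest rise was that of *snoRNA:Me28S-C1237* (6.77, 6.87 and 6.27 in starved mutants, against 4.13, 3.8 and 3.69 in fed mutants). Among w1118 controls, fed array 2 had 10 genes over 2 log2 units above both other fed control arrays, among them *AttD*, *Mtk* and *TotC*, and no other control array had more than 1.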
